A study of Homo sapiens with 4 samples.

Results

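In J82 bladder cancer cells, 13228 regions had a listed FOXC1 peak in both replicates. Of these, 4881 (36.9%, Wilson 95% interval 36.1 to 37.7%) lay inside introns of protein-coding genes and away from promoters. A region was kept when peaks of both replicates overlapped by at least 1 bp on chromosomes 1 to 22 or X. Its summit, the point midway between the summits of the replicates, had to fall within the body of a protein-coding gene, outside every annotated exon and over 2 kb from every annotated transcription start site. The introns were then numbered along the representative transcript of the host gene. By this count 1196 regions lay in first introns and 3011 in later introns. A further 637 lay in the gene body but outside the introns of the representative transcript, and 37 were in a first intron of 1 gene and a later intron of another. Regions were thus chosen by a peak in both replicates and by position. The order of the intron was not set by strength or sequence, which could therefore be compared between first and later introns. At the edge of the 2 kb rule, the regions in IPMK (3.68-fold enriched in replicate 1 and 6.11-fold in replicate 2) and, 2002 bp from a start site, TOGARAM1 (3.93 and 6.9) were kept. The region in CFTR, 2000 bp from one, was left out with 2.78 and 6.8.

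J82 is an established line from a human bladder cancer, grown here in DMEM with 10% FBS, and the labels give no treatment or edit. Chromatin immunoprecipitation sequencing (ChIP-seq) with the anti-FOXC1 antibody D8A6 was carried out on 2 biological replicates, read as single ends of 75 bp, each set against an input library of its own. The peak lists held 22393 peaks in replicate 1 and 41750 in replicate 2 on the chromosomes used. The input libraries enter here only through the enrichment values of those peaks. Within a shared region, fold enrichment is the number of ChIP reads over the summit divided by the number expected from the background. Each is raised by a pseudocount of 1. In replicate 2 the ChIP reads are first scaled by 0.904, a factor solved from the listed values.

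FOXC1 belongs to the forkhead family, whose DNA-binding domain reads a short A-rich core. Proteins of this family commonly bind enhancers, stretches of DNA that act on promoters from a distance, and many enhancers sit in the introns of the gene they act on or of a neighbour. First introns begin next to the promoter and are often rich in such elements. AP-1 factors, dimers of the JUN and FOS proteins, occupy many enhancers of epithelial and cancer cells, and RUNX and TEAD factors bind enhancers in the same kinds of cells.

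The DNA beneath strong intronic regions is shown here because the comparisons of sequence below rest on such words. The intronic regions were sorted on −log10 p in each replicate, and rank refers to the order of the weaker of their positions. The first set is drawn from the best-ranked regions in first introns (MRC2 and MLLT1) and in later introns (NINL and ERC1, with DLG2 in the next set) that carried a forkhead heptamer, meaning GTAAACA or GTAAATA, or the same words with A in place of the leading G, ATAAACA or ATAAATA, on either strand. Each line reaches 50 bp to either side of the summit, read on the plus strand of hg19, with the heptamer in capitals.
MRC2 chr17:60729886-60729986: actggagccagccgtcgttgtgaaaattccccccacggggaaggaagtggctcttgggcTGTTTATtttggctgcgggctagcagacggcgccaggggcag
MLLT1 chr19:6273946-6274046: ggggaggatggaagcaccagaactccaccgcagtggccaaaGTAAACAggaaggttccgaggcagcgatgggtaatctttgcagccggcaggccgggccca
NINL chr20:25488827-25488927: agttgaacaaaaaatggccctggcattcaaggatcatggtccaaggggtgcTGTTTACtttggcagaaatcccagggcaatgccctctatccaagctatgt
ERC1 chr12:1583560-1583660: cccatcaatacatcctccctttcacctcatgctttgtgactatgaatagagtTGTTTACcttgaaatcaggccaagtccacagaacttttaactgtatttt
The second set shows the best-ranked regions with both a heptamer and an AP-1 site (TGACTCA or TGAGTCA), from first introns (TRIM54 and TBC1D10A) and later introns (DLG2 and NT5DC3). Both sequences are in capitals.
TRIM54 chr2:27516063-27516163: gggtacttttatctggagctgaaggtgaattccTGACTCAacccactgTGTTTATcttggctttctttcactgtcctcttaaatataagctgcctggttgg
TBC1D10A chr22:30708229-30708329: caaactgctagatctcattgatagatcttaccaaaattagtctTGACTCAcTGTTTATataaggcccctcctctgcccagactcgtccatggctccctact
DLG2 chr11:84576442-84576542: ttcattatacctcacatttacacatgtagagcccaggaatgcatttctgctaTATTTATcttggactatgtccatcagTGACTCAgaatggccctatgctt
NT5DC3 chr12:104198841-104198941: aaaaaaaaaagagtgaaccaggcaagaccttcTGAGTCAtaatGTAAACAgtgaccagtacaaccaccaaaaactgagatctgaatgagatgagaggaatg
The third set shows strong regions that lacked the heptamer and carried a spaced element instead, in which CCAA is followed 4 bases on by AACA or AATA. This element was chosen after the sequences of strong peaks had been seen. On the strands printed here the element reads in reverse, as TGTT, then 4 bases, then TTGG, and these words are in capitals. ACO1 and ZFHX3 hold theirs in a first intron, and ITPR1 and HIBADH in a later intron. The windows of ACO1, ZFHX3 and ITPR1 also hold an AP-1 site, left in lower case here.
ACO1 chr9:32395983-32396083: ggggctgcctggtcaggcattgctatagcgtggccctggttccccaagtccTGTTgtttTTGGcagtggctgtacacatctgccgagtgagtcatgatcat
ZFHX3 chr16:73054422-73054522: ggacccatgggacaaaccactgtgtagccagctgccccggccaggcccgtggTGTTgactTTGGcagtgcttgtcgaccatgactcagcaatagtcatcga
ITPR1 chr3:4783463-4783563: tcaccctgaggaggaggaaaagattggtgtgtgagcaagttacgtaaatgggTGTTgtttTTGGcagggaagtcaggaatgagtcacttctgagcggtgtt
HIBADH chr7:27680911-27681011: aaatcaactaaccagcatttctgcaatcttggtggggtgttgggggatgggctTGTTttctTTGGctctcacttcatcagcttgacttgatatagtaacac
In MLLT1 and NT5DC3 the heptamer is read on the plus strand, and in the other windows with a heptamer it is read in reverse. In TBC1D10A a single base separates the heptamer from the AP-1 site. The heptamers of MRC2, MLLT1, NINL, TRIM54 and DLG2 have the words of the spaced element around them as well, since AACA or AATA is part of the heptamer.

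Occupancy varied widely among the intronic regions. Fold enrichment ran from 1.57 to 76 in replicate 1, with a median of 3.84, and from 1.73 to 94.3 in replicate 2, with a median of 6.86. The reads over the summits, recovered from the deposited values, had medians of 24 and 46. Replicate 2 gave the higher enrichment in 4488 regions (91.9%, against 91.9% of all shared regions), by a median factor of 1.70. Across the 4881 regions the Spearman rank correlation between the replicates was 0.761, which is a description, since the regions share 2 libraries and their depths. The log2 ratio of the recovered reads had an SD of 0.41 across regions where counting error alone gives 0.37, so the scatter between replicates was a little larger than counting error. In the 200 strongest regions the SD was 0.222 against 0.146. The plot of replicate 1 against replicate 2 shows this shift.

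**Figure D1:**
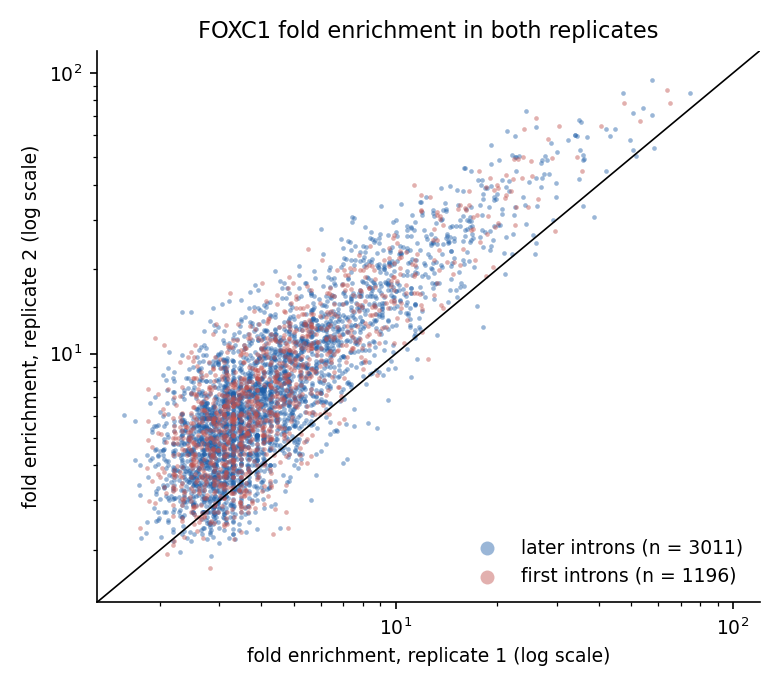
Fold enrichment of each FOXC1 region in first introns (red, n = 1196) and later introns (blue, n = 3011) in replicate 1 (x axis, log scale) and replicate 2 (y axis, log scale), with the line of equal values. Both groups cover a similar range and lie mostly above the line, 1097 of the 1196 first-intron regions and 2764 of the 3011 later-intron regions.

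The strongest intronic regions were in genes of varied function. The first by rank, at chr13:114147194-114148479 in the first intron of TMCO3, stood at 47.4 in replicate 1 and 78 in replicate 2 (mean 62.7 ± 21.7, SD over both replicates), and it carried an AP-1 site but no heptamer. The region in ACO1, which encodes the cytosolic aconitase that doubles as an iron-regulatory protein, lay in the first intron at chr9:32395473-32396583 with 65.1 and 77.9. The region in intron 44 of ITPR1, a calcium release channel of the endoplasmic reticulum, at chr3:4782989-4784048, had the highest mean of the 10 best-ranked regions, 79.6 ± 7.14 (SD over both replicates), from 74.6 and 84.6. In NINL, which encodes a ninein-like centrosomal protein, the region in intron 5 reached 94.3 in replicate 2 and 57.6 in replicate 1. In the first intron of ZFHX3, a zinc-finger homeobox transcription factor, the values were 63.8 and 87.3. HIBADH, an enzyme of valine breakdown, had 47.3 and 84.8 in intron 2, and DLG2, a synaptic scaffold protein, had 44.7 and 63 in intron 6. Of the other regions among the first 10, those in NREP (76 and 68.6) and MGAT4C (33.8 and 85.6) lay outside the introns of the representative transcript, and the one in MB21D2 (53.1 and 67.7) lay in a first intron. NREP was the only one of these 10 with a lower value in replicate 2.

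After these came, among first introns, PIP4K2A, a lipid kinase gene, with 30.4 and 64.5, and among later introns ERC1, which encodes a scaffold of vesicle release, with 58.4 and 53.9. A −log10 q of at least 5 in both replicates was reached by 2540 intronic regions (52.0%), compared with 50.7% of all shared regions. Some listed peaks fell far short of this, such as those of a region in NRG1 with −log10 q of 0.515 and 0.648. In promoters the share was 48.6% and between genes 50.6%. In 1494 intronic regions (30.6%) fold enrichment was at least 5 in both replicates, compared with 29.8% of all shared regions.

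FOXC1 occupied first introns more densely than later introns. To compare introns of unequal total length, regions were counted per Mb of sequence that met the position rule, called eligible sequence below. First introns held 5.81 regions per Mb of eligible sequence (exact Poisson 95% interval 5.48 to 6.15, over 205.9 Mb) and later introns 4.53 (4.37 to 4.70, over 664.1 Mb). The ratio was 1.28 (1.2 to 1.37). All 4881 regions together gave 4.89 per Mb (4.76 to 5.03). Between genes there were 3.85 regions per Mb (3.73 to 3.97), and within 2 kb of start sites 6.99 (6.73 to 7.26), so that introns stood between these. Intervals of this kind cover counting error only.

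The density fell step by step along the transcript. Second introns held 5.14 regions per Mb (4.76 to 5.54), introns in position 3 held 4.71 (4.28 to 5.16), introns 4 to 6 held 4.48 (4.15 to 4.82) and introns from the seventh on 4.15 (3.92 to 4.40). The intervals of neighbouring steps overlapped, and those of first introns and of introns in position 3 or beyond did not.

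**Figure D2:**
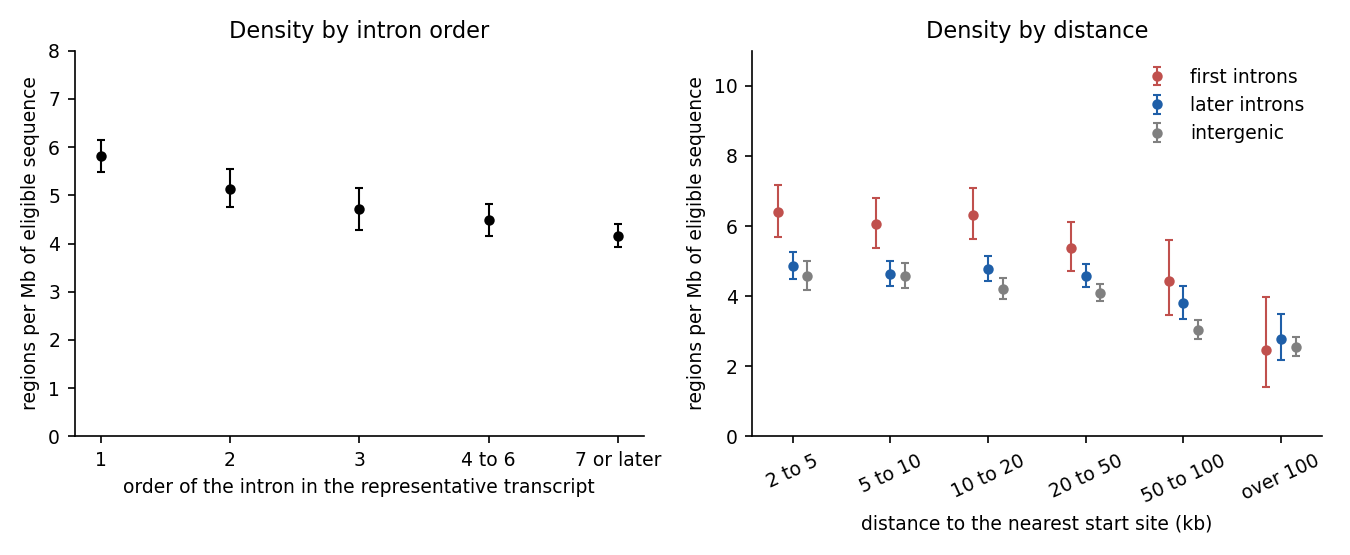
FOXC1 regions per Mb of eligible sequence (y axes, exact Poisson 95% intervals) by the order of the intron in the representative transcript (left) and by distance of the summit from the nearest start site in kb (right), for first introns (red), later introns (blue) and intergenic sequence (grey). Density fell from 5.81 in first introns to 4.15 from the seventh intron on, and first introns were denser than later ones at distances up to 50 kb.

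The difference was also present at matched distances from the start site. At 2 to 5 kb from a start site, first introns held 6.4 regions per Mb and later introns 4.87, a ratio of 1.32 (1.14 to 1.51). The ratio was 1.31 (1.13 to 1.51) at 5 to 10 kb and 1.33 (1.16 to 1.52) at 10 to 20 kb. At 20 to 50 kb it was 1.17 (1.01 to 1.36), and at 50 to 100 kb 1.17 (0.885 to 1.53). Beyond 100 kb, where first introns held 16 regions, it was 0.881 (0.480 to 1.52). The interval reached below 1 in the last 2 of these bands, so no difference was detectable there. Later introns held 4.87 regions per Mb and intergenic sequence 4.58 at 2 to 5 kb, and 4.63 and 4.58 at 5 to 10 kb. The values were 4.76 and 4.21 at 10 to 20 kb and 4.58 and 4.1 at 20 to 50 kb. At 50 to 100 kb they were 3.8 (3.35 to 4.3) and 3.04 (2.79 to 3.31), where the intervals did not overlap, and beyond 100 kb 2.78 and 2.55.

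The same comparison was made within genes after these values had been seen. Among 8894 genes with eligible sequence in both kinds of intron, 1930 held a region, and the density ratio of first to later introns stratified by gene was 1.27 (Mantel-Haenszel 95% interval 1.17 to 1.39). With all genes pooled and the interval clustered by gene, it was 1.28 (1.18 to 1.39). Eligible sequence had a GC content of 41.3% in first introns and 40.5% in later introns. Accessibility and mappability of the introns were not tested.

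Within the occupied regions no difference in strength or sequence was detected between first and later introns. The geometric mean fold enrichment over both replicates was 5.72 in first introns and 5.74 in later introns, a ratio of 0.996 (95% interval 0.959 to 1.03, linear model with standard errors clustered by gene, n = 1196 and 3011 regions, adjusted p = 0.979). The log2 difference was −0.02 ± 0.03 (SE) in replicate 1 and 0.01 ± 0.03 in replicate 2. Regions at a −log10 q of at least 5 made up 52.4% in first introns and 51.4% in later introns, a difference of 1.01 percentage points (−2.24 to 4.26). The heptamer was present at 48.9% and 48.3% of the summits (difference 0.59, −2.73 to 3.91), and an AP-1 site at 16.5% of both (difference −0.0678, −2.55 to 2.41). RUNX sites (TGTGGTT or TGTGGTC) were at 8.44% and 8.47%, and TEAD sites (ACATTCC or GCATTCC) at 6.10% and 6.44%. None of these shares differed beyond its error (adjusted p = 0.979 for each, n = 1196 and 3011 regions). The core of the CTCF consensus, the sequence of a factor that shapes chromatin loops, was in 0.0836% and 0.299% (adjusted p = 0.525, n = 1196 and 3011 regions).

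Of the 10 measures compared between first and later introns, none reached an adjusted p under 0.05, and the smallest unadjusted p was 0.0972, for CTCF. The geometric mean width of the merged region was 578 and 579 bp. GC content within 50 bp of the summit was 39.9% and 39.5% (difference 0.374, −0.145 to 0.894, adjusted p = 0.525, n = 1196 and 3011 regions). The direction of the small differences in fold enrichment, heptamer share and AP-1 share changed with the settings. First introns with a region had a median length of 57362 bp, and later introns 28248 bp. Summits lay a median of 10699 bp from the nearest start site in first introns and 12807 bp in later introns, and a median of 11913 and 5813 bp from the nearer end of the intron.

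The forkhead heptamer marked about the same share of intronic summits as elsewhere. It was found within 50 bp of 2361 of the 4881 summits (48.4%, interval 47 to 49.8%), compared with 48.6% of all shared regions, and in 531 control windows of equal width 500 bp away towards higher coordinates (10.9%). In 2090 regions it was present at the summit and absent from the control window, and in 260 the reverse held (exact McNemar test, −log10 p = 354). An AP-1 site was found at 812 summits (16.6%, with 16.6% of all shared regions) and in 102 control windows (2.09%), a difference in the same direction (exact McNemar test, −log10 p = 144). RUNX sites were at 8.58% of summits (7.67% of all shared regions) and in 2.85% of control windows. TEAD sites were at 6.29% (6.26% of all shared regions) and in 2.72%. Both were more frequent at the summit (exact McNemar test, −log10 p = 35.0 and 16.7).

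The heptamers differed in how far they stood above the control. GTAAACA, found at 19.6% of summits, was 12.7 times as frequent there as in the control windows, where it was in 1.54%. ATAAACA was at 19.1% and in 3.44%, a factor of 5.55. GTAAATA was at 7.31% and in 1.97% (3.72 times), and ATAAATA at 8.01% and in 4.71% (1.70 times). The words ending in ACA thus exceeded their controls more than those ending in ATA. All 4 were about as frequent in first as in later introns, with 19.8% and 19.5% for GTAAACA and 19.1% and 19.2% for ATAAACA. In the heptamer's own orientation the base in front of it was A or T in 44.2% and 34.5% of 2648 matches.

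The heptamer lay close to the summit. The median distance of the nearest one was 13 bp, and 67.0% lay within 20 bp. In first introns the median was 12 bp and in later introns 13 bp. In the 20 bp on either side of the summit, 17.2% and 17.6% of first-intron regions and 15.4% and 17.6% of later-intron regions held a heptamer, compared with 3.68% of first-intron and 2.66% of later-intron regions in the bin that begins 200 bp to the side of lower coordinates. AP-1 sites were spread more broadly, with a median of 20 bp from the summit. Both were present in 368 regions (7.54%, compared with 7.33% of all shared regions). In these the heptamer and the AP-1 site lay a median of 23 bp apart (quartiles 14 and 35 bp). Both had to lie within 50 bp of the summit, which limits this distance. An AP-1 site was present in 15.6% of regions with the heptamer and 17.6% of regions without it, a difference of −2.03 percentage points (−4.13 to 0.0685).

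**Figure D3:**
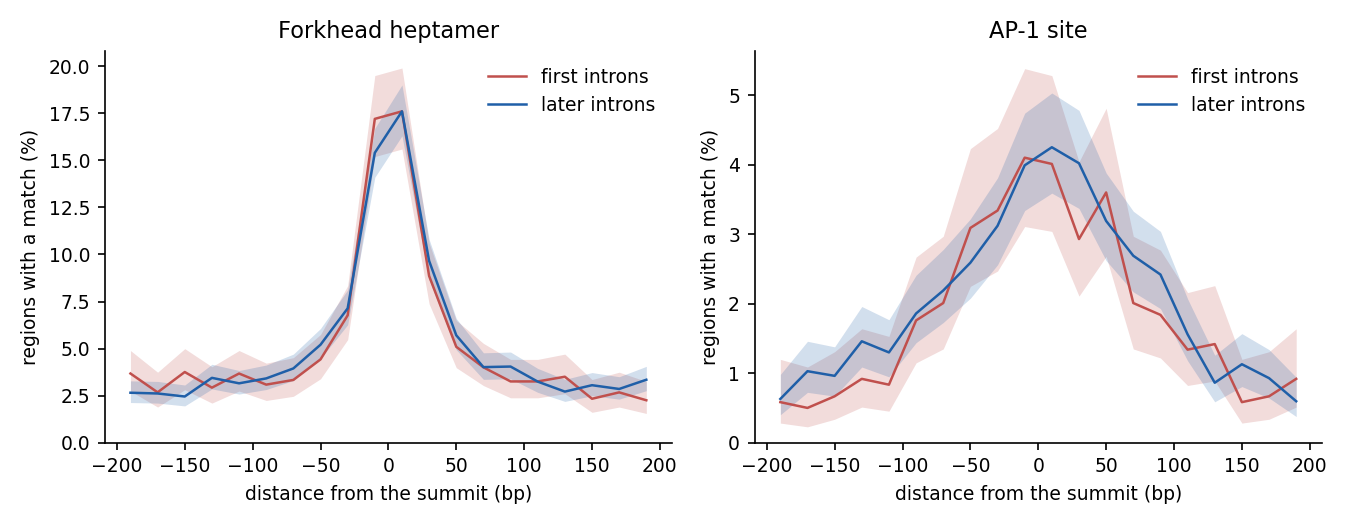
Share of regions with a forkhead heptamer (left) or an AP-1 site (right) in bins of 20 bp (y axes, percent) by distance from the summit (x axes, bp), for first introns (red) and later introns (blue) with Wilson 95% intervals as bands. Both sequences peaked at the summit, the heptamer within about 40 bp and the AP-1 site over a broader span, and the bands of the groups overlapped near the summit.

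Relative to the host gene, the heptamer was read from the opposite strand more often than from the coding strand. Of 2235 regions with heptamers on 1 strand only, 982 (43.9%, interval 41.9 to 46.0%) had it in the direction of the gene (exact binomial test, two-sided p = 1.08e-08). The share was 42.9% in first introns and 44% in later introns. The flanking DNA leaned the same way. In control windows 500 bp away on both sides, 475 of 1028 such windows (46.2%, interval 43.2 to 49.3%) had it in the direction of the gene, and this interval overlapped that of the summits. On the coding strand T made up 31.8% and A 28.5% of the bases at the summits, and 30.8% and 28.1% in the windows at higher coordinates. The part of this base composition in the strand bias was not tested. Among the words, ATAAACA had the lowest share at the summit, 40.3% (37 to 43.6%), and GTAAACA had 45.5% (42.3 to 48.8%). In the control windows ATAAACA had 45.2% (37.5 to 53%) on the side of higher coordinates and 35.8% (28.2 to 44.2%) on the side of lower ones, and both intervals overlapped that of the summits. GTAAACA had 43.5% and 43.8% there.

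The sequence content of intronic regions changed with their strength. In the 50 strongest regions the heptamer was present in 32.0% (20.8 to 45.8%), fewer than the 58.6% (54.2 to 62.8%) of the 500 regions that followed rank 500. From there it decreased to 44.4% (42.2 to 46.7%) among the 1881 weakest. The spaced element fell at every step, with 60% (46.2 to 72.4%) in the 50 strongest, 38% in the next 50, 11% in the 500 after rank 500 and 6.22% (5.22 to 7.4%) in the 1881 weakest. AP-1 sites fell from 30% (19.1 to 43.8%) to 12.7% (11.2 to 14.2%). The share of first introns, among regions in first or later introns, was 27.3% in the 50 strongest and 28.2% in the 1881 weakest. The spaced element had been read from strong peaks of these data, so its rank profile describes the regions and tests nothing.

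**Figure D4:**
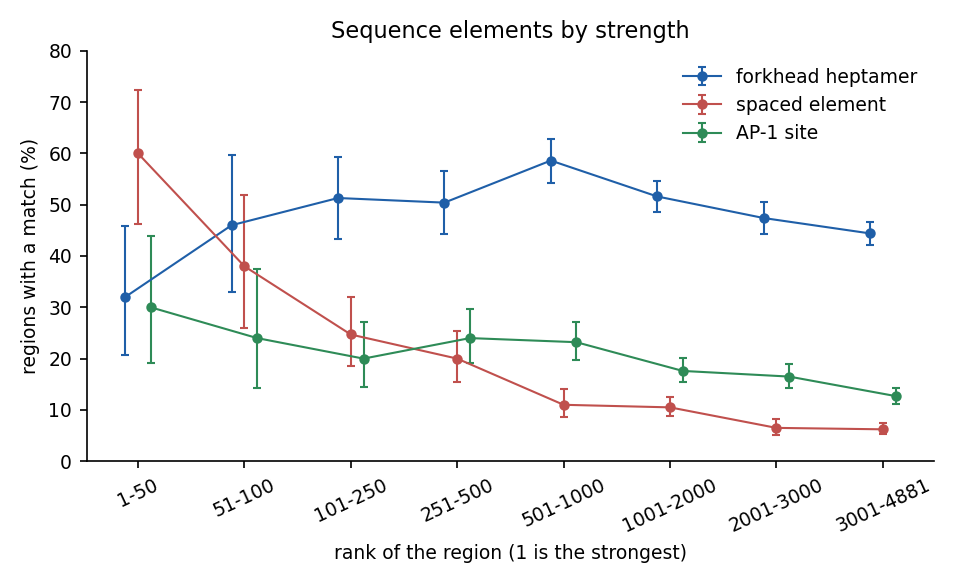
Share of intronic FOXC1 regions with a forkhead heptamer (blue), the spaced element (red) or an AP-1 site (green) within 50 bp of the summit (y axis, percent, Wilson 95% intervals) by rank (x axis), where rank 1 is the region with the best worse rank of its −log10 p in the replicates. The spaced element fell from 60% to 6.22%, while the heptamer was lowest, at 32.0%, in the 50 strongest regions.

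One distance between the words of the spaced element stood apart from the others. That distance of 4 bases had been read from strong peaks of these data, so its excess describes the regions and tests nothing. With 4 bases between CCAA and AACA or AATA, the element was found at 478 intronic summits (9.79%, interval 8.99 to 10.7%). It was in 39 control windows (0.799%), a factor of 12.3. Among all shared regions it was at 8.94% of summits, between genes at 9.13% and at promoters at 7.54%, so introns were near the general share. With any other number of bases from 0 to 10, the words were found at 1 to 2.75% of summits and in 0.574 to 1.33% of control windows. In the 100 strongest regions, 49 had the words 4 bases apart, while the next highest count, 9, was shared by distances of 0 and 1 base. Of the 478 regions, 300 lacked a heptamer, compared with 731 of 1182 regions with the element among all shared regions. Of 484 matches, 289 (59.7%) continued as TTGGC, a recognition word of the nuclear factor I family. This share was not compared with control windows or with other shared regions. Which proteins bound the element was not tested. The element was at 10.5% of first-intron summits (8.84 to 12.3%) and 9.13% of later-intron summits (8.16 to 10.2%).

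**Figure D5:**
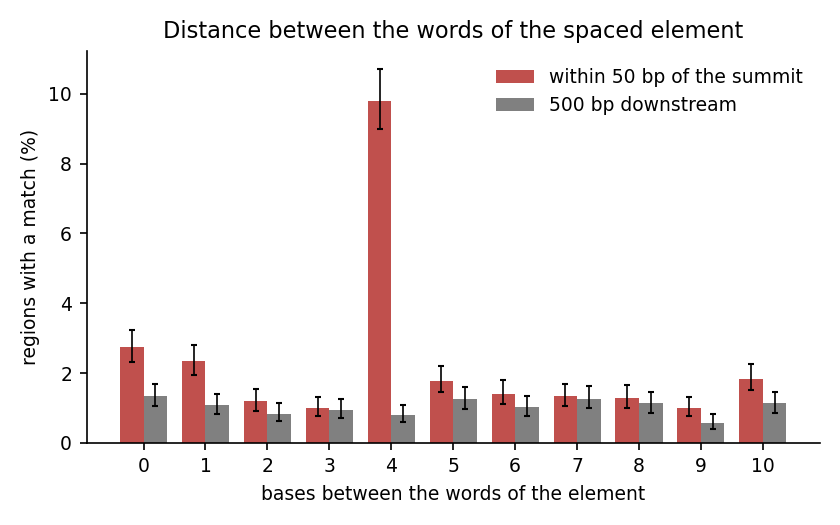
Share of intronic FOXC1 regions with the 2 words of the spaced element (y axis, percent, Wilson 95% intervals) by the number of bases between them (x axis), within 50 bp of the summit (red) and in the window 500 bp towards higher coordinates (grey). The bar at 4 bases reached 9.79% at the summit against 0.799% in the control window, and every other red bar was at or below 2.75%. The distance of 4 bases had been read from strong peaks of these data.

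Regions with an AP-1 site, a TEAD site or the heptamer were more strongly enriched than those without. With an AP-1 site the geometric mean fold enrichment was 6.60, and without one 5.62, a ratio of 1.17 (95% interval 1.12 to 1.23, linear model clustered by gene, n = 812 and 4069 regions, adjusted p = 5.86e-11). With a TEAD site it was 6.37 against 5.73, a ratio of 1.11 (1.04 to 1.19, n = 307 and 4574 regions, adjusted p = 0.0041). The heptamer made a smaller difference, 5.98 against 5.58, a ratio of 1.07 (1.04 to 1.11, n = 2361 and 2520 regions, adjusted p = 6.6e-05), and 1.03 (1 to 1.07) in replicate 1 against 1.11 (1.07 to 1.15) in replicate 2. RUNX sites gave 6.09 against 5.74 (n = 419 and 4462 regions, adjusted p = 0.05). With the spaced element it was 8.53 against 5.53, a ratio of 1.54 (1.43 to 1.66), and 1.56 in replicate 1 and 1.53 in replicate 2. No p is given for it, because the element was read from strong peaks of these data. These 5 contrasts were added after the data had been seen. The geometric mean was 6.01 in regions with 1 heptamer and 5.80 in those with 2 or more, a difference that was not tested. Regions with neither heptamer nor AP-1 site numbered 2076 (42.5%, compared with 42.1% of all shared regions), and 47.1% of them reached a −log10 q of 5 in both replicates.

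Against the other kinds of shared region, introns differed in AP-1 sites more than in the heptamer. The AP-1 share was 16.6% in introns and 12.1% at promoters, a difference of 4.57 percentage points (2.96 to 6.18, linear model clustered by gene, n = 4881 and 2652 regions, adjusted p = 1.68e-07). Between genes it was 19.1%, and introns differed from this by −2.46 points (−4.08 to −0.837, n = 4881 and 3865 regions, adjusted p = 0.0089). The heptamer share was 48.4% in introns (n = 4881), 49.3% at promoters (n = 2652, adjusted p = 0.545) and 48.5% between genes (n = 3865, adjusted p = 0.896). Geometric mean fold enrichment was 5.77 in introns (n = 4881), 5.63 at promoters (ratio 1.03, 0.997 to 1.05, adjusted p = 0.121) and 5.58 between genes (ratio 1.03, 1.01 to 1.06, adjusted p = 0.0159). Neither difference from intergenic regions that passed held when regions were restricted to a −log10 q of at least 5 in both replicates (n = 2540 and 1956, adjusted p = 0.228 for AP-1 and 0.164 for fold enrichment) or when replicate 2 was left out (adjusted p = 0.65 and 0.106).

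The regions were spread over many genes. With each region assigned to 1 gene, 2723 of the 16618 protein-coding genes with eligible sequence hosted at least 1 (16.4%). Of these, 1689 (62.0%) had exactly 1 region, 157 had 5 or more and 10 had 10 or more. Across chromosomes the density had a median of 4.88 regions per Mb, with the lowest value, 2.10, on chromosome X and the highest, 6.78, on chromosome 20.

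The 6 genes described next held the most regions, in 299.5 to 1135.8 kb of eligible sequence each. NRG1, a growth factor that binds ERBB receptors, held 15, of which 1 lay in a first and 4 in later introns of its representative transcript, and the others outside them. Their fold enrichments were 2.19 to 8.58 in replicate 1 and 2.09 to 12.8 in replicate 2. LPP, a LIM-domain protein of focal adhesions, held 14, of which 13 lay in later introns. The strongest, in its second intron at chr3:187983722-187984381, had 19.0 and 23.5 and carried a heptamer. RAD51B, a gene of homologous recombination, held 13, with 10 in later introns, and none exceeded 7.54 in replicate 1 or 16.8 in replicate 2. RUNX1, a transcription factor gene, held 12, and 9 of them had a heptamer. Its strongest region, in intron 6 at chr21:36217663-36218690, had 36.8 and 59, while the next by rank had 10 and 22.1. ZFPM2, a cofactor of GATA factors, held 12, with the strongest at 10.3 and 18.5. EXT1, which encodes an enzyme that extends heparan sulfate chains, was named after its value had been seen. It held 12 regions, 11 of them in its first intron, at 40.1 regions per Mb of eligible sequence, compared with 10.6 to 21.5 in the 5 genes above. Local background, the read number expected at the summit without enrichment, had medians of 6.07 and 5.86 reads in EXT1, 7.01 and 7.02 in NRG1 and 4.16 and 3.75 in RUNX1 (replicates 1 and 2), against 5.39 and 5 over all intronic regions. On chromosome 20 these medians were the highest of all chromosomes, 8.09 and 7, and on chromosome X they were 4.16 and 3.75. The part of background, and of gene copies in J82, in these densities was not tested.

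Among gene groups, the integrins and focal adhesion genes had the highest value for their length, with an interval that overlapped those of every other list described here but the receptor tyrosine kinases. Integrins are the cell's receptors for the extracellular matrix, and 19 of the 40 genes on this list held a region (47.5%, compared with 14.2% of all protein-coding genes). Their 50 regions gave 13 per Mb of eligible sequence (9.66 to 17.2), compared with 4.89 for all coding genes, and 32 reached a −log10 q of 5 in both replicates (64.0%, compared with 52.0%). LPP contributed 14 of the 50. ITGB8 had 19.6 and 38.2 in its first intron at chr7:20391283-20393130, ITGA1 had 13.3 and 31.9 in its first intron, and ITGA9 had 15.8 and 30.9 in intron 25.

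The other groups were described in the same way, and their shares of host genes stand against 14.2% of all protein-coding genes. In the YAP, TAZ and TEAD pathway, which relays cell contact and tension to transcription, 14 of 26 genes (53.8%) held 33 regions, 11 per Mb (7.54 to 15.4). AMOTL1 had 20.3 and 39.8, NF2, the upstream tumour suppressor, had 11.9 and 32.4 in its first intron, and TEAD1, a DNA-binding partner of YAP, had 11.4 and 15 in its second. In the forkhead family, 9 of 52 genes (17.3%, near the general share) held 27 regions, 12.5 per Mb (8.23 to 18.2), of which FOXP1 contributed 11. The strongest, in the second intron of FOXP2, had 29.8 and 36.2. In the TGF-beta and SMAD pathway, 12 of 34 genes (35.3%) held 21 regions, 7.89 per Mb (4.88 to 12.1). The receptor TGFBR2 had 12.9 and 24.8 and the co-receptor TGFBR3 13.2 and 37.2.

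ABC transporters, membrane pumps that include drug efflux proteins, had 23 regions in 12 of 41 genes (29.3%), 7.74 per Mb (4.91 to 11.6). ABCG2, an efflux pump, had the strongest of them, 20.3 and 48.9, in intron 10. ABCB1, the efflux pump gene that the study examined, had 2 intronic regions. One, in intron 4 at chr7:87199444-87199931, had 3.46 and 6.65 with a heptamer and an AP-1 site. The other, at chr7:87237854-87238129, had 2.98 and 3.78 with neither sequence. In the first region the replicate summits lay 117 bp apart, and the words were searched around their midpoint. The −log10 q values were 3.39 and 18 in the first region and 1.85 and 4.95 in the other, so neither reached 5 in both replicates. Both were below the median of intronic regions, 3.84 and 6.86, in each replicate.

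Collagens and laminins had 23 regions in 12 of 35 genes (34.3%), 6.66 per Mb (4.22 to 10). Of these regions, 26.1% reached a −log10 q of 5 in both replicates. COL5A1 had 9.88 and 15.5. Receptor tyrosine kinases were the only list described here with a density below that of all coding genes. They had 25 regions in 12 of 44 genes (27.3%), 3.44 per Mb (2.23 to 5.08), an interval that holds 4.89. ROR1 had 22.6 and 59.4 and KIT 21.1 and 36. The lists were chosen with earlier results of these data known, regions of 1 gene are not independent, and the intervals cover counting error only, so these densities are a description.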

How the data were processed

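Peaks of FOXC1 ChIP-seq in J82 cells were analysed for 2 biological replicates. The authors aligned reads to hg19 with BWA and called peaks in each replicate against its input with MACS2 2.2.7.1. The threshold behind the lists is not given in the sources used here. The paper also called reproducible peaks with the IDR tool, a step that the overlap rule used here did not include. The deposited lists gave a score, a fold enrichment (a ratio with a pseudocount of 1) and −log10 p and −log10 q values for each peak, and no library totals. The inputs were not analysed here on their own.

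Peaks were merged at an overlap of at least 1 bp. Regions were annotated with GENCODE version 44 lifted to GRCh37, in which 19819 of 20098 protein-coding genes had a tagged canonical transcript. The number of reads at each summit was recovered from fold enrichment and p together, with a whole number found for 100% of peaks in both lists (tolerance 0.001). Median recovered reads over all peaks were 18 and 23, which sets the precision of a single value. Words were searched on both strands of hg19 within 50 bp of the summit and in a control window 500 bp away.

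Regions were compared by linear models with standard errors clustered by gene. The p-values were adjusted by the Benjamini-Hochberg method over 10 first-against-later, 6 between-class and 5 sequence contrasts. The 5 sequence contrasts include the spaced element, whose own p is not given. Its place there makes the adjusted p of the AP-1, heptamer and TEAD contrasts smaller. Regions share the same libraries, so these tests measure the spread among regions and not among cultures. Python 3.11.15, numpy 2.4.6, pandas 2.3.3, scipy 1.17.1 and pysam 0.24.0 were used. The steps were tested on simulated data. The regions and gene lists were chosen with earlier results of these data known. Named were the 10 best-ranked regions, the first 5 in first and in later introns, and the 5 genes with most regions. ABCB1 and up to 4 genes of each of the 8 lists were also named. For sequence, best-ranked regions were taken, with chromosome 8 left out where the heptamer was required. One gene list and one sequence that these rules chose are not reported here. Alternatives covered the transcript, promoter distance, summit, overlap, window, control side, threshold and each replicate.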

Additional observations from a re-analysis of the deposited data

Results flagged for a closer look

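Intronic peaks listed in a single replicate take no part in the comparisons, and they too held the forkhead heptamer more often at the summit than in the control window. Of 3298 such peaks in replicate 1 alone, with a median fold enrichment of 2.61, 16.3% (15.1 to 17.6%) had it, against 10.3% of control windows (exact McNemar test, −log10 p = 12.5). Of 10423 in replicate 2 alone, with a median of 3.18, 34.6% (33.7 to 35.5%) had it, against 10.1% (exact McNemar test, −log10 p = 397). Both shares lay below the 48.4% of regions found in both replicates. What sets the gap between the lists was not tested.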

How the results depend on the processing

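Of 84 alternatives, 68 kept their direction and side of the threshold. The small differences between first and later introns changed sign in several, and none passed in any at an adjusted p under 0.05. For the heptamer share the difference was −0.485 points over 5 kb from start sites and −0.534 in a window of 100 bp, and −0.504 to 1.17 with a replicate left out. It kept its direction but was larger, 4.48, at a −log10 q of at least 5 in both replicates, and 2.98 with 1 region per gene. For AP-1 it was 0.24 over 5 kb, 0.114 at an overlap of 50% of each peak and 0.0934 with distance as a covariate, and −1.52 to −1.2 with a replicate left out. For log2 fold enrichment it was 0.00278 with 1 region per gene and 0.000257 with −log10 p in its place, and −0.0184 to 0.00756 with a replicate left out. At a −log10 q of at least 5 in both replicates 2540 regions remained, and the differences from intergenic regions were 0.0409 for log2 fold enrichment and −1.75 points for AP-1, neither past the threshold. The heptamer differences there were −3.78 from promoters and −0.99 from intergenic regions. With a replicate left out the differences from intergenic regions were 0.0333 to 0.0623 for log2 fold enrichment and −2.23 to −0.633 points for AP-1. Neither passed without replicate 2. With a replicate left out the heptamer differences were −1.18 to 0.321 from promoters and −0.544 to 0.461 from intergenic regions. The causes were not tested. No paired analysis was possible because the replicate numbers tie each ChIP library to its own input, which enters only through the enrichment values, so that no groups of samples were compared. Pairing by region or gene is a separate matter and was used in the McNemar tests and the ratio within genes. With alternatives added after the data were seen, the density ratio was 1.27 within genes, and the strand share stood −7.05 points from equal at a −log10 q of at least 5. Depth limits the weak regions, which rest on as few as 11 and 12 reads at a summit.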
